A study of Mus musculus with 12 samples.

Results

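Aminoacyl-tRNA synthetases are the enzymes that attach each amino acid to its own tRNA. They were picked from the deposited count table by a pattern of gene symbols (a 1-letter amino acid code followed by ars, with Eprs, Ears2, Farsa, Farsb and Tarsl2), which found 38 of the 24411 symbols. Of these, 21 encode cytosolic enzymes, Tarsl2 among them, and 17 encode mitochondrial enzymes, which carry the suffix 2. All 38 passed the filter on low counts, which kept 11578 symbols in all. The pattern itself uses no measured level, but it was chosen with earlier results of these data known.

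A synthetase binds its amino acid and ATP, forms an activated intermediate and passes the amino acid to the end of the matching tRNA, which then serves the ribosome. The cytosolic and mitochondrial ribosomes use separate sets of tRNAs, and most amino acids have a separate nuclear gene for the enzyme of each compartment, while Gars and Kars are known to supply both. Several cytosolic enzymes sit together in the multisynthetase complex, held by the scaffold proteins Aimp1, Aimp2 and Eef1e1. The transcription factor ATF4, which is made when amino acids run short, is known to raise many cytosolic synthetase genes.

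RNA was sequenced from HoxB8 cells, mouse bone marrow cells immortalised by an estrogen-dependent Hoxb8, in 12 libraries. Each population carried a pair of vectors, pMIG and pMICH. The Asxl1-MT2/T618I cells carried Asxl1-MT2, a truncated Asxl1, in pMIG and the T618I mutant of the granulocyte colony-stimulating factor receptor CSF3R in pMICH. The Empty/T618I cells carried only the receptor, the Asxl1-MT2/Empty cells only the truncated Asxl1, and the Empty/Empty cells both vectors without an insert. Every group had 3 libraries, all from the same named line, grown with stem cell factor and then without estrogen for 24 h, so the controls share the immortalisation and its withdrawal. The labels do not say whether libraries came from separate cultures, and the p-values measure the spread between libraries, which may be technical.

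Libraries held 9341984 to 10252291 counts in all, and a synthetase gene had between 52 and 4152 counts in a library. Levels are CPM, counts scaled to a common library size after TMM normalisation, whose factors (0.919 to 1.03) had their 3 lowest values in Asxl1-MT2/T618I. The deposited columns name a group and a letter, used here as A, B and C, and nothing ties the letters to the numbers in the titles. The library titled as the third of Empty/Empty has a genotype label that reads pMIG-Empty with the T618I receptor. Its column is not known, so groups follow the titles here. Asxl1 averaged 1004 CPM in Asxl1-MT2/T618I and 1744 CPM in Asxl1-MT2/Empty, against 149 CPM in Empty/T618I and 119 CPM in Empty/Empty. Progenitor markers (Kit, Cd34, Mpo, Elane, Prtn3 and Myb) were present in all groups, while the red cell genes Hba-a1 and Hbb-bs and the T cell gene Cd3e had 0 counts in every library. The progenitor markers summed to 30605 to 38615 CPM over the Empty/Empty columns and 14213 to 16696 CPM over the Empty/T618I columns. Neutrophil genes, listed further below, summed to 675 to 1081 CPM and 2470 to 3258 CPM. No Empty/Empty column thus lay within the Empty/T618I range of either sum. Of the 38 genes, 12 share exon bases with another gene model (GENCODE vM21, GRCm38), among them Aars, Ears2, Farsb, Hars, Hars2, Iars2, Vars2 and Yars. Hars and Hars2 share 195 bases, and Aars shares 1326 with Exosc6 on the same strand. The strand setting of the counting is not given in the sources used here, so the values of these 12 are less certain.

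The promoter stretches below are shown because they hold, upstream of the start site, a motif searched for in these genes. The windows are RefSeq's for GRCm38.p6, from 250 bases before to 50 bases after the start, and 28 of the 38 genes had one (14 cytosolic and 14 mitochondrial). Capitals mark the matched letters. The amino acid response element, the composite site that C/EBP and ATF4 proteins are known to bind, was searched as TGATGNAA or its reverse complement TTNCATCA. The E-box, bound by Myc and related factors, was searched as CACGTG.
Gars, element from -30 to -23, chr6:55037960-55037989, plus strand: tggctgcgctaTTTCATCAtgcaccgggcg
Tars, element from -15 to -8, chr15:11399659-11399684, minus strand: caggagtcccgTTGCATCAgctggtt
Aars, E-box from -146 to -141, chr8:111033684-111033713, plus strand: agtcaaccctgtCACGTGacactccatgtc
Farsb, E-box from -39 to -34, chr1:78488919-78488948, minus strand: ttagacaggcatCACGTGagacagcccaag
Iars, E-box from -69 to -64, chr13:49682049-49682078, plus strand: gaccaatcgccaCACGTGttgtttgtaggt

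The amino acid response element was found in the windows of 5 of 14 cytosolic genes (35.7%), namely Aars, Gars, Iars, Tars and Yars, and in 0 of 14 mitochondrial ones. Of all 27025 genes with a window, 4.51% held it. The matches of Iars and Yars lie just past the start site. The E-box was in 4 of 14 cytosolic windows (28.6%; Aars, Farsb, Iars and Tars) and in 1 of 14 mitochondrial windows (7.14%; Ears2), against 8.09% of all genes. These are matches of letters and were not tested as binding sites. Genes with no window to search included Hars, Lars, Nars and Pars2.

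The first comparison asks what the receptor mutant did on its own. Of 21 cytosolic synthetases, 9 had higher transcript levels in Empty/T618I cells than in Empty/Empty cells, led by Tars, Farsb, Yars and Gars, which charge threonine, phenylalanine, tyrosine and glycine. By edgeR's quasi-likelihood test at an adjusted p under 0.05, these 9 of 21 cytosolic enzymes rose and 1 (Dars) fell, with 11 not called, while 0 of 17 mitochondrial enzymes rose and 1 fell. Over all genes tested 33.5% were called in this comparison, 17.6% higher and 15.9% lower. The median log2 fold change was 0.16 for cytosolic enzymes, -0.0056 for mitochondrial enzymes and 0.0037 for all genes. With Empty/Empty A, B or C counted in turn as Empty/T618I, for the genotype label above, the count of 11 calls was 0, 0 and 2. Over all genes tested the calls were then 0, 0, and 634 higher with 361 lower, in place of 2038 higher and 1840 lower. The cytosolic median log2 fold change was 0.087, 0.090 and 0.20 in these fits. By the marker sums given above, every Empty/Empty column lay outside the range of Empty/T618I.

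Tars, threonyl-tRNA synthetase (chr15:11382301-11399665, minus strand), had 189.6, 195 and 204 CPM in Empty/T618I libraries A, B and C, against 135, 145 and 154 CPM in Empty/Empty libraries. Its log2 fold change was 0.44 ± 0.082 (SE), with an adjusted p of 0.000409, and the groups did not overlap. Groups did not overlap for any of the 71 pairwise calls of synthetases, so this adds nothing to a call. Farsb (chr1:78417975-78488897, minus strand), the beta subunit of phenylalanyl-tRNA synthetase, had 129.6, 146 and 134 CPM in Empty/T618I, against 104, 107 and 100.1 CPM in Empty/Empty (log2 fold change 0.39 ± 0.088, adjusted p 0.00214). Again every Empty/T618I library lay above every Empty/Empty library. The alpha subunit gene Farsa did not follow, with a mean of 169.8 ± 13.0 CPM in Empty/T618I and 183 ± 11.4 CPM in Empty/Empty (SD, n = 3 each; log2 fold change -0.11 ± 0.085, adjusted p 0.361). The difference between the subunits was not tested.

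Gars (chr6:55038007-55079500, plus strand), which charges glycine in both compartments, had 284, 276 and 285 CPM in Empty/T618I and 222, 228 and 233 CPM in Empty/Empty (log2 fold change 0.31 ± 0.083, adjusted p 0.00809). Hars, for histidine, was tight within each group, with 148, 151 and 150.2 CPM in Empty/T618I and 122, 124 and 122 CPM in Empty/Empty (log2 fold change 0.28 ± 0.070, adjusted p 0.00425). Yars, Aars, Cars, Sars and Rars rose by 0.33, 0.27, 0.26, 0.26 and 0.24 on the log2 scale. Of the 9 that rose, Cars and Sars lost the call without Empty/Empty B (adjusted p 0.0622 and 0.0584), and Rars lost it without Empty/Empty A, Empty/Empty B or Empty/T618I B (adjusted p at most 0.102). Vars, for valine, narrowly missed the threshold (log2 fold change 0.19 ± 0.073, adjusted p 0.0561).

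Enzymes that fell with the receptor alone were Dars, the aspartyl enzyme, and Pars2, the mitochondrial prolyl enzyme. Dars had 193, 199 and 197 CPM in Empty/T618I and 233, 242 and 253 CPM in Empty/Empty (log2 fold change -0.31 ± 0.077, adjusted p 0.00498). Pars2, at a low level, had 9.61, 8.30 and 10.6 CPM in Empty/T618I and 14.6, 13.6 and 11.8 CPM in Empty/Empty (log2 fold change -0.49 ± 0.14, adjusted p 0.0114). Groups did not overlap for either gene, but Pars2 lost the call without Empty/Empty A or Empty/T618I B (adjusted p at most 0.0717). The smallest cytosolic changes were those of Tarsl2, Nars and Lars (log2 fold changes 0.0037, 0.033 and 0.072), and the smallest mitochondrial ones those of Yars2, Rars2 and Iars2 (-0.0056, -0.029 and 0.038). Nars, for asparagine, had 355, 367 and 380.4 CPM in Empty/T618I and 357, 364 and 356 CPM in Empty/Empty. Rars2, for mitochondrial arginine, had 37.5, 37.3 and 36.3 CPM in Empty/T618I and 37.3, 35.6 and 40.5 CPM in Empty/Empty. Libraries of the groups were intermixed for both.

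Cytosolic enzymes of the multisynthetase complex and those outside it had different counts. Of the 8 enzymes of the complex, Rars rose and Dars fell, with a median log2 fold change of 0.089, while 8 of the 13 other cytosolic enzymes rose and 0 fell, with a median of 0.26. By catalytic class, 3 of 10 class I and 6 of 11 class II cytosolic enzymes rose. Over all genes in Empty/T618I against Empty/Empty, 17.6% were higher and 15.9% lower. In Asxl1-MT2/T618I against Empty/Empty, 7 of the 8 and 2 of the 13 fell, beside 23.1% of all genes. Against Asxl1-MT2/Empty 6 and 4 fell, beside 22.8%, and against Empty/T618I 6 and 10 fell, beside 18.5%. These counts describe the sets, and the difference between them was not tested.

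**Figure D1:**
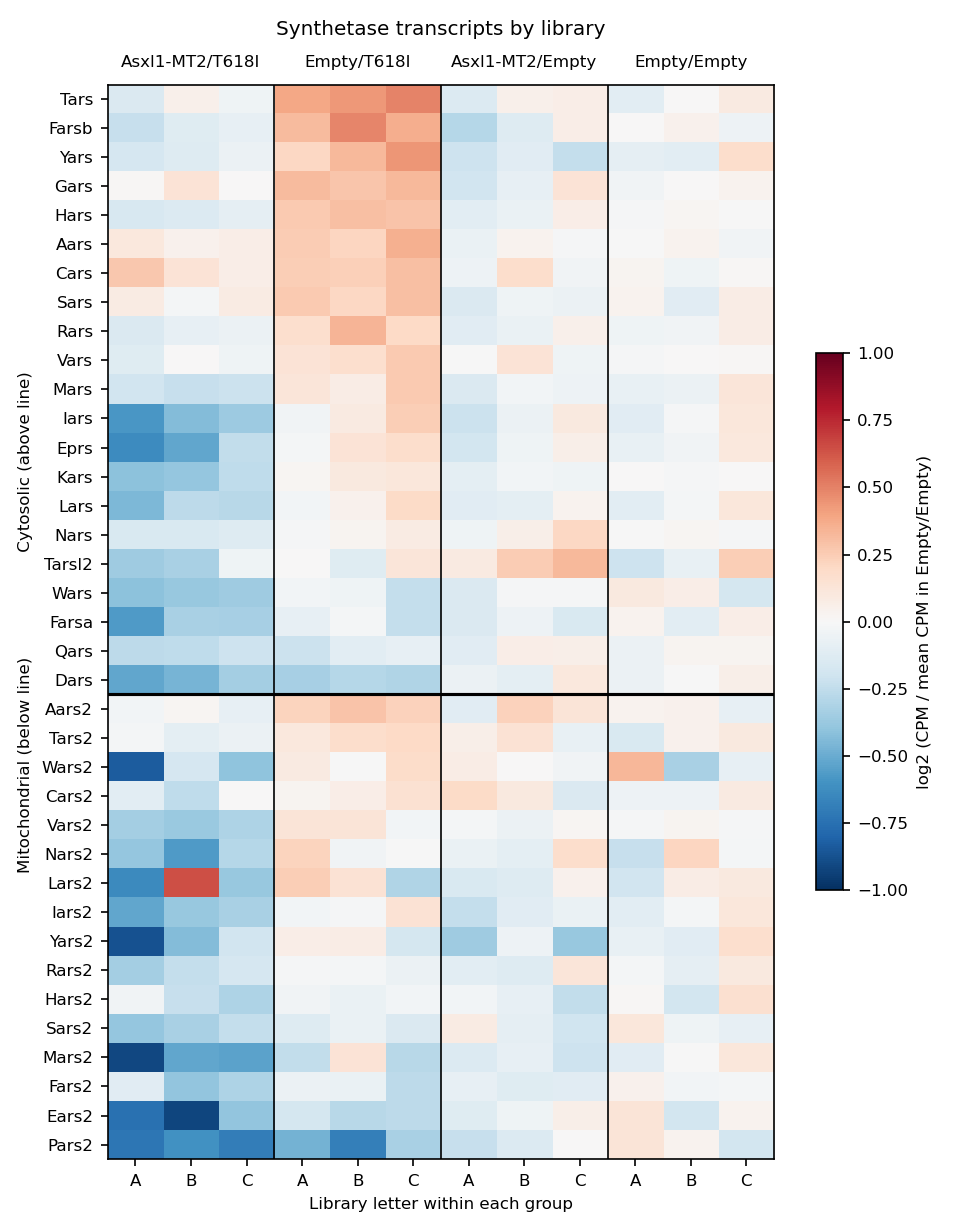
Level of the synthetase genes (down the page) in each library (across, 3 per group), as the log2 ratio of its CPM to the mean CPM in Empty/Empty, with cytosolic genes above the line and mitochondrial genes below it, ordered by the log2 fold change of Empty/T618I against Empty/Empty. Red cells gather at the top of the Empty/T618I columns (Tars, Farsb, Yars, Gars), and most cells are blue in the Asxl1-MT2/T618I columns.

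Asxl1-MT2 on its own was followed by no call among the synthetases. Comparing Asxl1-MT2/Empty with Empty/Empty, edgeR called 0 of 38 at an adjusted p under 0.05, against 1.86% of all genes tested (1.24% higher and 0.622% lower), and 1 at an unadjusted p under 0.05. DESeq2 also called 0, with 1 at an unadjusted p under 0.05. The median log2 fold change was -0.042 for cytosolic and -0.065 for mitochondrial enzymes. The smallest were those of Tars, Qars and Dars (-0.0030, 0.0070 and -0.013) and, among mitochondrial enzymes, of Nars2, Wars2 and Vars2 (0.0078, 0.015 and -0.018). Tars had 132, 149.95 and 151 CPM in Asxl1-MT2/Empty, spread like the 135, 145 and 154 CPM of Empty/Empty. A p above the threshold does not show that levels were equal.

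In cells with the T618I receptor, adding Asxl1-MT2 went with lower synthetase transcripts in both compartments. Comparing Asxl1-MT2/T618I with Empty/T618I, 16 of 21 cytosolic and 8 of 17 mitochondrial enzymes fell and 0 rose, against 43.9% of all genes called, 25.4% higher and 18.5% lower. The log2 fold change was negative for all 38. Its median was -0.30 for cytosolic enzymes, -0.25 for mitochondrial enzymes and 0.011 for all genes. When libraries were scaled by their totals only, the median of all genes moved to -0.12, and the cytosolic and mitochondrial medians to -0.42 and -0.37. The split of all called genes then changed from 2939 higher and 2143 lower to 2266 higher and 3514 lower. Without Asxl1-MT2/T618I A the count of synthetases called fell to 16.

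Iars (chr13:49682100-49734267, plus strand), isoleucyl-tRNA synthetase of the multisynthetase complex, had 118, 131 and 137 CPM in Asxl1-MT2/T618I, against 173, 188 and 209.7 CPM in Empty/T618I. Its log2 fold change was -0.56 ± 0.099 (adjusted p 0.000211), and every Asxl1-MT2/T618I library was below every Empty/T618I library. Eprs (chr1:185363044-185428360, plus strand), a single protein that charges both glutamate and proline, had 188, 203 and 245 CPM in Asxl1-MT2/T618I and 287, 319.9 and 329 CPM in Empty/T618I (log2 fold change -0.56 ± 0.099, adjusted p 0.000242). Farsb had 88.7, 95.7 and 97.9 CPM in Asxl1-MT2/T618I, below the 129.6 to 146 CPM of Empty/T618I (log2 fold change -0.53 ± 0.089, adjusted p 0.000123). The groups were apart for each of these, and none lost its call when any library was left out.

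Among the mitochondrial enzymes Mars2, which charges methionine, had 11.6, 15.1 and 14.98 CPM in Asxl1-MT2/T618I and 18.3, 23.9 and 17.9 CPM in Empty/T618I (log2 fold change -0.53 ± 0.14, adjusted p 0.00537). Wars2, for tryptophan, had 5.52, 8.77 and 7.44 CPM in Asxl1-MT2/T618I and 10.5, 9.83 and 11.2 CPM in Empty/T618I (log2 fold change -0.53 ± 0.19, adjusted p 0.0276). Neither pair of groups overlapped, and Wars2 lost its call without Empty/T618I C or Asxl1-MT2/T618I A (adjusted p at most 0.138). The other mitochondrial enzymes that fell were Nars2, Yars2, Iars2, Ears2, Vars2 and Aars2, by 0.47, 0.46, 0.44, 0.43, 0.42 and 0.28 on the log2 scale. Of these, Iars2 and Vars2 kept the call without any single library. Aars2 lost it in 5 of the leave-one-out fits, Ears2 in 4, Nars2 in 2 and Yars2 in 1, each time with a library of Asxl1-MT2/T618I or Empty/T618I left out.

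Of the cytosolic enzymes, Tars, Yars, Kars, Hars, Lars, Mars and Rars fell by 0.48, 0.45, 0.43, 0.41, 0.40, 0.37 and 0.33 on the log2 scale. Each kept the call in every leave-one-out fit. Farsa, Wars, Gars, Vars, Sars and Aars fell by 0.30, 0.28, 0.25, 0.24, 0.21 and 0.20. Of the 24 calls, 14 held with any single library left out. The same share over all called genes is not given here. Every enzyme that rose with the receptor alone, other than Cars, was called lower when Asxl1-MT2 was added. Cars had a negative log2 fold change too but was not called. Both comparisons use the Empty/T618I libraries.

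Cytosolic enzymes with the smallest changes here were Cars, Qars and Dars, which charge cysteine, glutamine and aspartate. Cars had 68.1, 62.1 and 59.0 CPM in Asxl1-MT2/T618I and 66.9995, 66.4 and 69.4 CPM in Empty/T618I (log2 fold change -0.10 ± 0.084, adjusted p 0.355). Qars had 131, 132 and 136 CPM in Asxl1-MT2/T618I and 135, 145 and 148 CPM in Empty/T618I (log2 fold change -0.11 ± 0.075, adjusted p 0.260). Both overlapped between the groups. Dars had 169, 176 and 192 CPM in Asxl1-MT2/T618I and 193, 199 and 197 CPM in Empty/T618I (log2 fold change -0.13 ± 0.077, adjusted p 0.173), so its groups were close but apart. The smallest mitochondrial changes were those of Lars2, Fars2 and Hars2, which did not pass (log2 fold changes -0.061, -0.14 and -0.14), and the libraries of the groups overlapped for each.

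**Figure D2:**
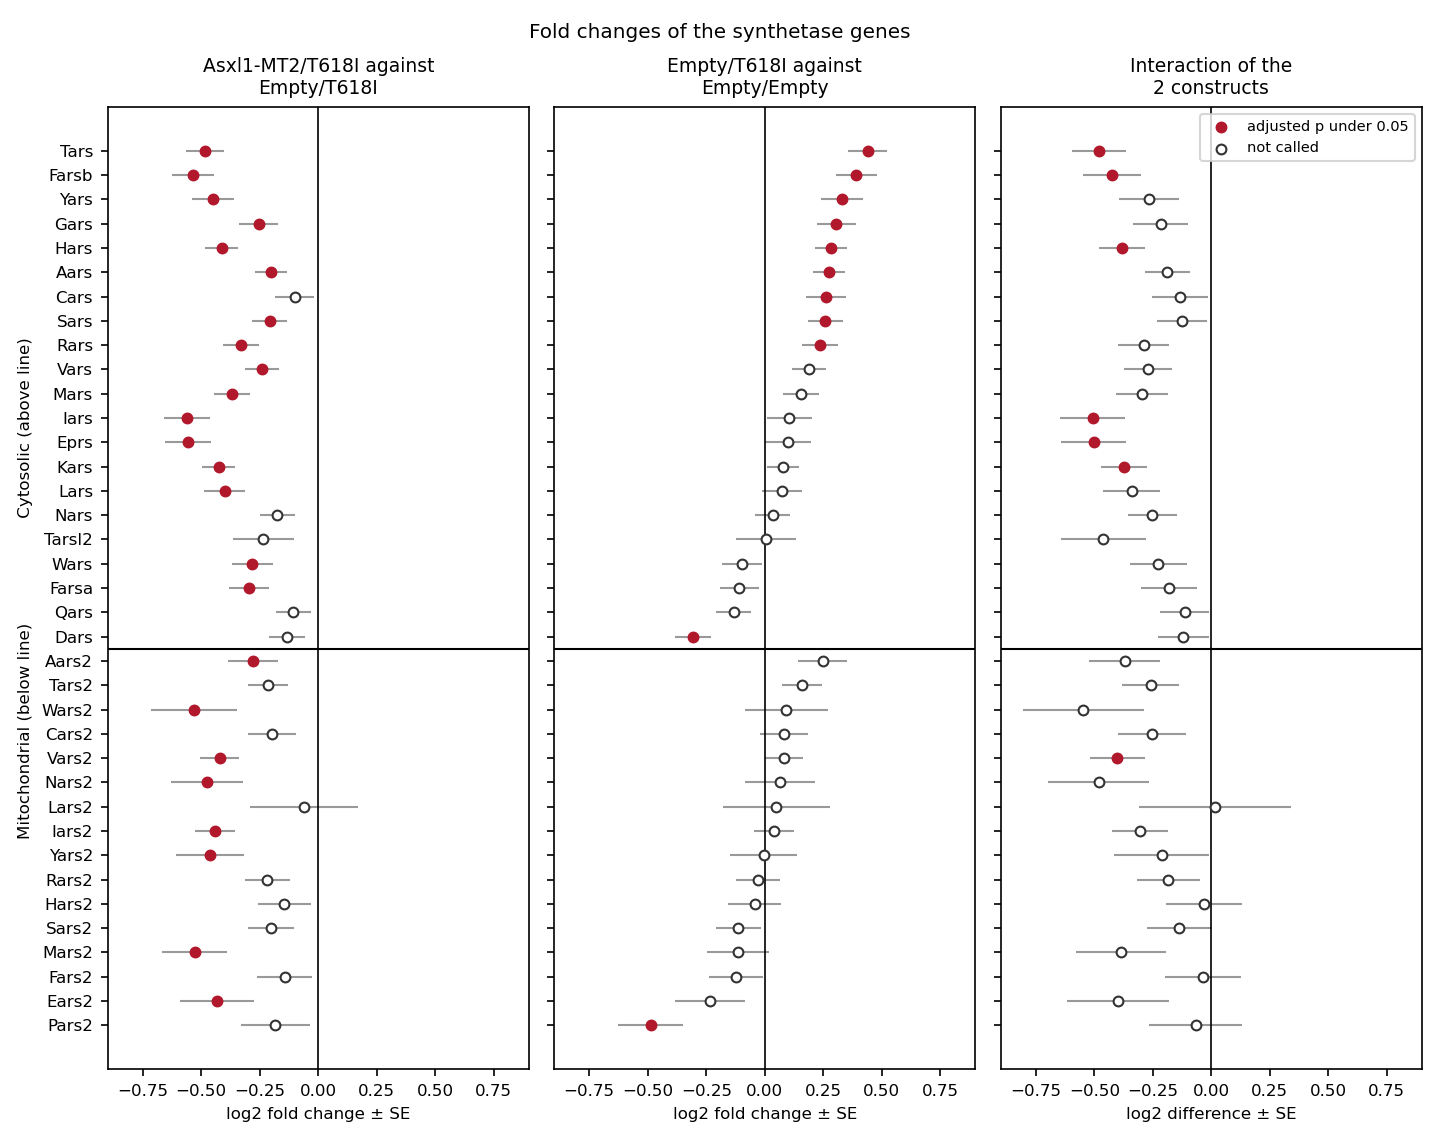
Log2 fold change ± SE of the synthetase genes for Asxl1-MT2/T618I against Empty/T618I, for Empty/T618I against Empty/Empty, and for the interaction of the constructs, with filled points at an adjusted p under 0.05 (edgeR) and genes in the order of the middle panel. All points of the left panel lie below 0, and the 9 filled points above 0 in the middle panel are cytosolic.

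Lars2, the mitochondrial leucyl enzyme, had 44.4, 108 and 53.1 CPM in Asxl1-MT2/T618I libraries A, B and C, and 82.1, 76.4 and 56.0 CPM in Empty/T618I. Rn45s, the ribosomal RNA precursor, had 606, 2529 and 822 CPM in the same Asxl1-MT2/T618I libraries and 1532, 1207 and 529 CPM in the Empty/T618I libraries. In both groups the order of the libraries by Lars2 was also their order by Rn45s, as it was in Empty/Empty (Lars2 60.5, 72.9 and 74.2 CPM with Rn45s 792, 968 and 1136 CPM). The part of Rn45s in the Lars2 value was not tested. Lars2 did not pass in any comparison with all libraries. Asxl1-MT2/Empty had 62.4, 63.1 and 71.2 CPM of Lars2 with 955, 819 and 897 CPM of Rn45s, so there the orders differed. With Asxl1-MT2/T618I B left out, Lars2 passed as lower with both constructs than with Asxl1-MT2 alone (log2 fold change -0.42, adjusted p 0.0329), against 0.066 with all libraries.

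**Figure D3:**
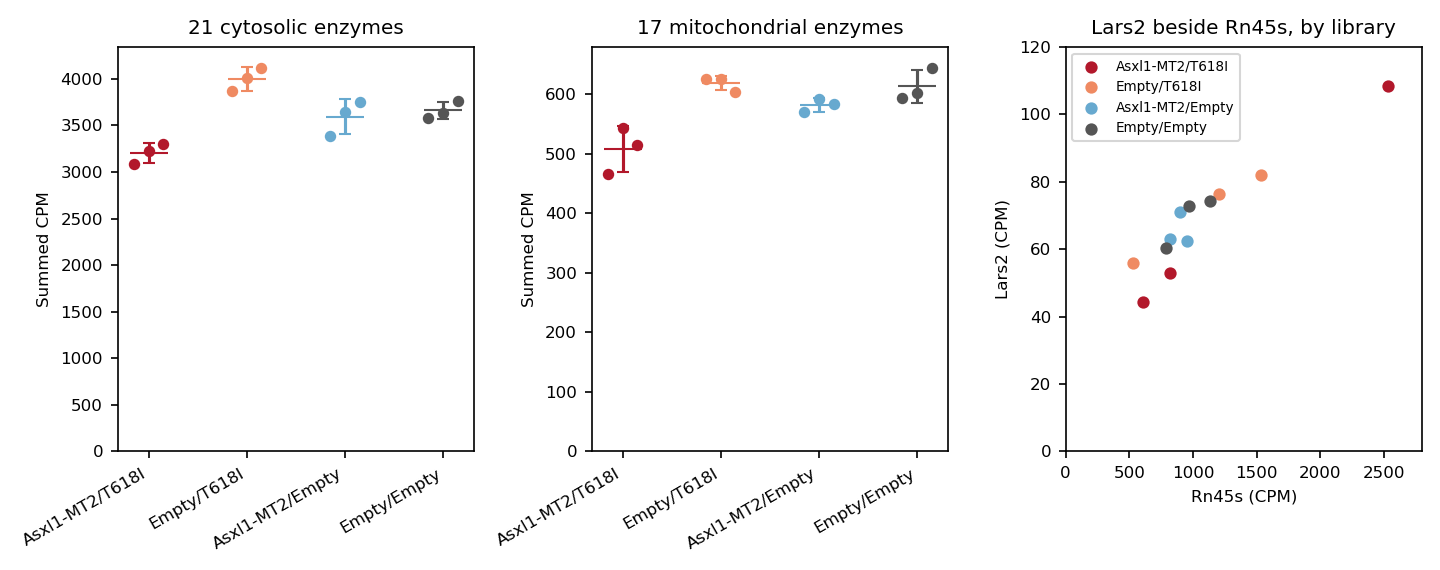
Left and middle, summed CPM of the 21 cytosolic and the 17 mitochondrial enzymes in each library with mean ± SD of 3 libraries; right, Lars2 against Rn45s in CPM, 1 point per library. The cytosolic sum averaged 3202 CPM in Asxl1-MT2/T618I and 3998 CPM in Empty/T618I, and the Asxl1-MT2/T618I library with 108 CPM of Lars2 had 2529 CPM of Rn45s.

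The comparisons of Asxl1-MT2/T618I with cells lacking the receptor mutant gave fewer calls of cytosolic enzymes than the 16 against Empty/T618I. For mitochondrial enzymes, where 8 fell against Empty/T618I, this was not so against Empty/Empty. Against Asxl1-MT2/Empty, 10 of 21 cytosolic and 7 of 17 mitochondrial enzymes fell and 0 rose, beside 49.8% of all genes called (26.9% higher and 22.8% lower). Against Empty/Empty, 9 cytosolic and 10 mitochondrial enzymes fell and 0 rose, beside 50.6% of all genes called (27.5% higher and 23.1% lower). The cytosolic median log2 fold change was -0.14 in both, and the mitochondrial medians were -0.22 and -0.34. The 3 comparisons of Asxl1-MT2/T618I share its libraries. Scaled by library totals only, all called genes split into 2585 higher and 3805 lower against Asxl1-MT2/Empty, in place of 3118 and 2643, and into 2594 and 4051 against Empty/Empty, in place of 3186 and 2674. Without Asxl1-MT2/T618I A the count against Asxl1-MT2/Empty dropped to 11.

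Mitochondrial enzymes of low level had the largest falls in these comparisons. Ears2, for glutamate, had 6.48, 5.74 and 8.26 CPM in Asxl1-MT2/T618I, against 9.99, 10.6 and 11.3 CPM in Asxl1-MT2/Empty and 11.9, 9.54 and 11.1 CPM in Empty/Empty. Its log2 fold changes were -0.63 ± 0.16 and -0.67 ± 0.16 (adjusted p 0.00297 and 0.00192). Pars2 had 8.07, 8.77 and 8.26 CPM in Asxl1-MT2/T618I, against 11.4, 12.1 and 13.4 CPM in Asxl1-MT2/Empty and the Empty/Empty values above (log2 fold changes -0.55 ± 0.14 and -0.67 ± 0.14, adjusted p 0.00396 and 0.000814). The groups were apart in each case. Mars2, with 19.8, 20.5 and 18.8 CPM in Asxl1-MT2/Empty and 20.03, 21.7 and 23.4 CPM in Empty/Empty, gave log2 fold changes of -0.50 ± 0.14 and -0.64 ± 0.14 (adjusted p 0.00650 and 0.000940). Against Empty/Empty, Cars, Aars, Gars and Sars had positive log2 fold changes (0.16, 0.072, 0.051 and 0.051) that did not pass.

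**Figure D4:**
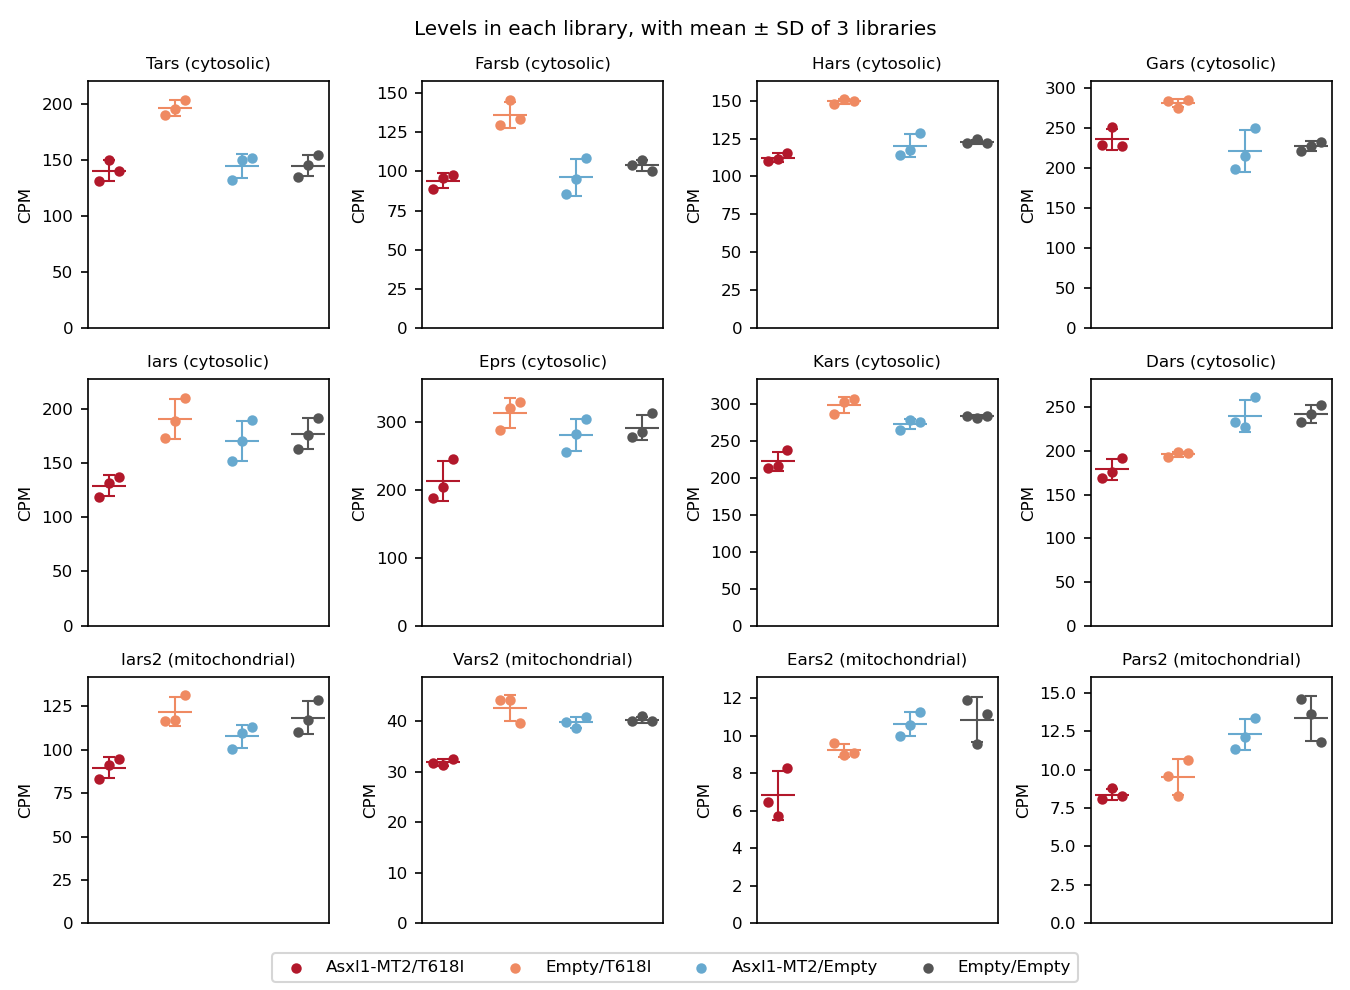
CPM of 12 synthetase genes in each library (points), with mean ± SD of 3 libraries, in the order Asxl1-MT2/T618I, Empty/T618I, Asxl1-MT2/Empty and Empty/Empty. For Tars and Farsb only Empty/T618I stands apart, for Iars, Eprs and Vars2 only Asxl1-MT2/T618I does, and Dars and Pars2 are lower in both groups with the T618I receptor than in the groups without it.

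The interaction asks whether the effect of Asxl1-MT2 differed between cells with and without the T618I receptor. It was called for 7 of 38 synthetases, all negative, beside 19.6% of all genes (14.1% higher and 5.51% lower). They were Iars (-0.51 ± 0.14, adjusted p 0.0162), Eprs (-0.50 ± 0.14, adjusted p 0.0176), Tars (-0.48 ± 0.12, adjusted p 0.00753), Farsb, Vars2, Hars and Kars. The last of these, Kars (chr8:111993443-112011323, minus strand), charges lysine in both compartments and had 213, 217 and 237 CPM in Asxl1-MT2/T618I, 286, 303 and 306 CPM in Empty/T618I, 265, 278 and 275 CPM in Asxl1-MT2/Empty and 284, 280.4 and 284 CPM in Empty/Empty. The Asxl1-MT2/T618I libraries of Kars lay below the other 9, and the other groups did not overlap each other either but were closer together. Vars2 had 31.7, 31.2 and 32.5 CPM in Asxl1-MT2/T618I against 38.7 to 44.1 CPM over the other 9 libraries, whose groups overlapped. With scaling by library totals all called genes split into 1312 higher and 1393 lower, in place of 1635 and 638. Without Empty/Empty C the count of synthetases was 13. Moving Empty/Empty A, B or C in turn into the Empty/T618I group gave 0, 0 and 7 calls. In these fits all genes gave 635 calls higher and 76 lower, 587 and 49, and 1026 and 462.

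Summed over the family, synthetase transcripts made up 0.349% ± 0.020 of counts in Asxl1-MT2/T618I and 0.473% ± 0.013 of counts in Empty/T618I (SD, n = 3 each). Their share was 0.422% ± 0.019 of counts in Asxl1-MT2/Empty and 0.438% ± 0.015 of counts in Empty/Empty. These shares are of library totals without TMM scaling. With TMM scaling the family summed to 3709.5 ± 141 CPM in Asxl1-MT2/T618I and 4616 ± 115 CPM in Empty/T618I. It summed to 4175 ± 200 CPM in Asxl1-MT2/Empty and 4275 ± 122 CPM in Empty/Empty. The cytosolic enzymes averaged 3202 ± 109 CPM in Asxl1-MT2/T618I, 3998 ± 125 CPM in Empty/T618I, 3594 ± 191 CPM in Asxl1-MT2/Empty and 3662 ± 94.4 CPM in Empty/Empty. No library of Asxl1-MT2/T618I (3083 to 3298 CPM) reached those of any other group, and none of Empty/T618I (3867 to 4117 CPM) overlapped them. The mitochondrial enzymes summed to 508 ± 39.0 CPM in Asxl1-MT2/T618I, 619 ± 12.5 CPM in Empty/T618I, 581 ± 11.3 CPM in Asxl1-MT2/Empty and 613 ± 27.3 CPM in Empty/Empty. Here Empty/T618I overlapped Empty/Empty. Asxl1-MT2/T618I libraries A, B and C summed to 466, 543 and 514 CPM, of which Lars2 made up 44.4, 108 and 53.1 CPM.

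Markers of myeloid cell types also differed between groups, though not all in the pattern of the synthetases. Neutrophil genes (Mmp8, Mmp9, Cxcr2, Ltf, Camp, S100a8 and S100a9) summed to 12624 to 19849.7 CPM in Asxl1-MT2/T618I, 2470.4 to 3258 CPM in Empty/T618I, 778 to 1063 CPM in Asxl1-MT2/Empty and 675 to 1081 CPM in Empty/Empty. Of the 7, 7 rose in Asxl1-MT2/T618I against Empty/T618I, and 5 rose and 1 fell in Empty/T618I against Empty/Empty. Over all genes 25.4% were higher and 18.5% lower in the former, and 17.6% and 15.9% in the latter. The 6 progenitor genes summed to 12008 to 16361 CPM in Asxl1-MT2/T618I and 14213 to 16696 CPM in Empty/T618I, and to 34324 to 38041 CPM in Asxl1-MT2/Empty and 30605 to 38615 CPM in Empty/Empty. Of these 6, 2 fell in Asxl1-MT2/T618I against Empty/T618I, 5 fell in Empty/T618I against Empty/Empty, and 0 were called higher in either. Of the 11 mast cell and basophil genes, which also count Kit, 7 fell in Asxl1-MT2/T618I against Empty/T618I and 10 rose and 1 fell in Empty/T618I against Empty/Empty. Of the 5 monocyte and macrophage genes, 4 rose and 0 fell in the first of these and 2 rose and 1 fell in the second. The part of such markers in the synthetase values was not tested, and in bulk RNA fewer cells of a type and less RNA per cell cannot be told apart.

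Levels can be compared between genes only per length, as CPM per kb of the gene's merged exons (GENCODE vM21, GRCm38). In Empty/Empty cells the median was 50.4 CPM per kb for cytosolic and 9.10 CPM per kb for mitochondrial enzymes. The highest was Kars at 126 CPM per kb, and Tarsl2, a cytosolic threonyl enzyme that resembles Tars, was the lowest cytosolic gene at 7.85 CPM per kb. Mitochondrial genes ran from Mars2 at 1.92 to Cars2 at 20.6 CPM per kb. The place of Mars2 depends on its gene model of 11294 bases, the longest of the family. Before division by length it had 21.7 CPM in Empty/Empty, above Wars2 at 9.84 CPM. In Asxl1-MT2/T618I the medians were 43.3 CPM per kb for cytosolic and 7.19 CPM per kb for mitochondrial enzymes, and Nars, the asparaginyl enzyme, was highest at 111 CPM per kb.

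**Figure D5:**
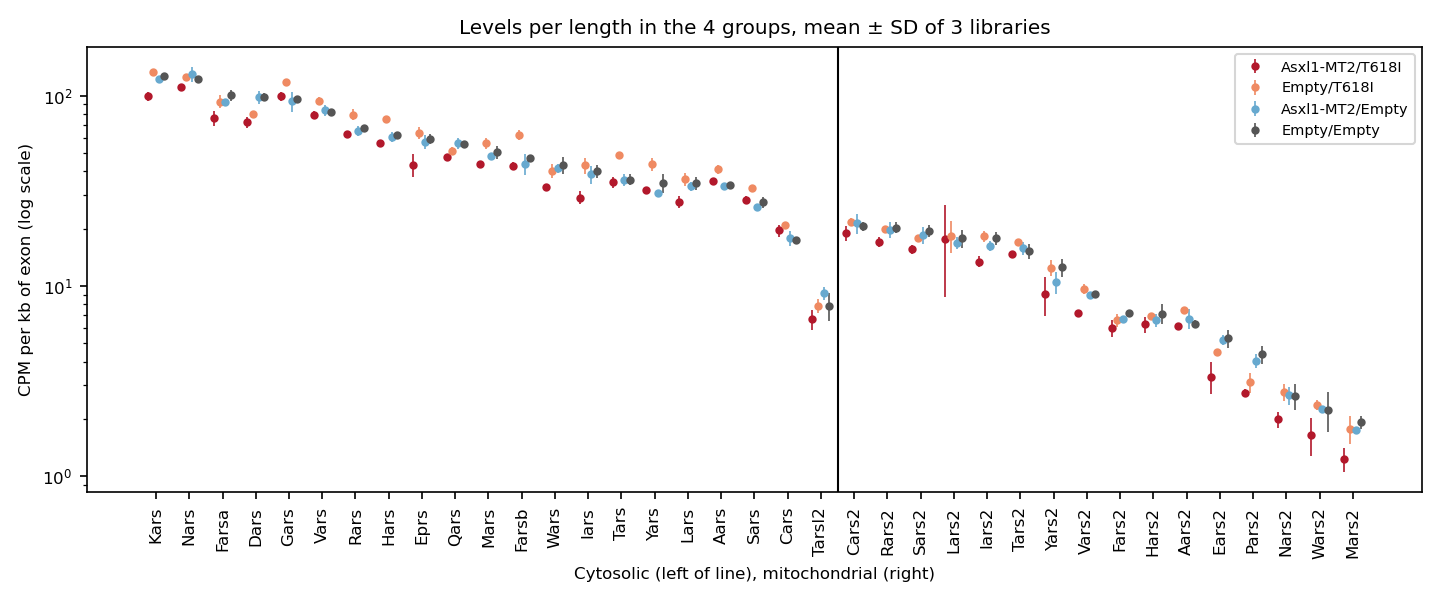
Mean ± SD (3 libraries) of CPM per kb of exon on a log scale for the synthetase genes in the 4 groups, cytosolic genes left of the line and mitochondrial genes right of it, each sorted by its level in Empty/Empty. Cytosolic genes mostly lie above mitochondrial ones, with Kars highest and Tarsl2 lowest among the cytosolic genes in Empty/Empty.

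Lists of genes that work beside the synthetases were counted in the same comparisons. Of the multisynthetase scaffolds, Eef1e1 had 28.7, 35.4 and 33.2 CPM in Asxl1-MT2/T618I and 56.0, 58.7 and 46.3 CPM in Empty/T618I, with no overlap (log2 fold change -0.73 ± 0.11, adjusted p 4.90e-05). It rose by 0.40 ± 0.11 in Empty/T618I against Empty/Empty (adjusted p 0.00760), as did Aimp1 by 0.32 ± 0.11 (adjusted p 0.0367, lost in 4 leave-one-out fits), and its interaction was -0.62 ± 0.16 (adjusted p 0.00932). Aimp1 and Aimp2 also fell in Asxl1-MT2/T618I against Empty/T618I (log2 fold changes -0.34 and -0.33), and each lost the call in 4 leave-one-out fits (adjusted p at most 0.161). These fits left out Empty/T618I A, Empty/T618I B or Asxl1-MT2/T618I A for both genes, and Asxl1-MT2/T618I C for Aimp1 or B for Aimp2. Of 12 genes for tRNA charging, export and editing, 7 fell and 0 rose in that comparison, beside 18.5% lower and 25.4% higher over all genes. Their median was -0.39 beside 0.011 for all genes, led by Xpot, the tRNA exporter, at -0.57 ± 0.089 (adjusted p 7.03e-05).

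Of 21 tested tRNA maturation genes, 3 rose and 1 fell in Empty/T618I against Empty/Empty, with a median of 0.11, beside 17.6% higher and 15.9% lower over all genes. In Asxl1-MT2/T618I against Empty/T618I 1 rose and 10 fell, with a median of -0.35, beside 25.4% higher and 18.5% lower over all genes. The count of 4 dropped to 2 without Empty/Empty A or Empty/T618I C. With both constructs Rpp40, a part of RNase P, fell by 0.61 ± 0.17 (adjusted p 0.00733), and Elac2, which trims the tRNA end, fell by 0.55 ± 0.085 (adjusted p 6.93e-05), on the log2 scale.

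Genes of the amino acid response, a list of eIF2 kinases, Atf4 and its known targets, did not move as one. In Empty/T618I against Empty/Empty 13 of 29 tested rose and 1 fell, with a median of 0.25. Over all genes 17.6% were higher and 15.9% lower. Nupr1 rose by 2.83 ± 0.29 (adjusted p 8.08e-07), Trib3 by 1.68 ± 0.40 (adjusted p 0.00318), Chac1 by 1.09 ± 0.17 (adjusted p 6.96e-05) and Ddit4 by 0.89 ± 0.13 (adjusted p 3.10e-05), on the log2 scale. Atf4 itself averaged 357 ± 21.2 CPM in Empty/T618I and 341 ± 37.0 CPM in Empty/Empty and was not called. In Asxl1-MT2/T618I against Empty/T618I 7 rose and 10 fell, with a median of -0.080, beside 25.4% higher and 18.5% lower over all genes. The called genes with the largest absolute changes there all rose: Nupr1 and Trib3 (0.92 ± 0.21 and 1.13 ± 0.31, adjusted p 0.00201 and 0.00659) and the transcription factor genes Atf3 and Cebpb (2.56 ± 0.58 and 0.94 ± 0.15, adjusted p 0.00183 and 6.93e-05).

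Of 15 tested amino acid transporters, 4 rose and 3 fell in Empty/T618I against Empty/Empty, beside 17.6% higher and 15.9% lower over all genes. Among them were Slc6a9, a glycine carrier, at 2.76 ± 0.22, and Slc7a11, the cystine carrier, at 1.75 ± 0.15. Slc7a5 and Slc3a2, the chains of a large neutral amino acid carrier, were at 1.67 ± 0.090 and 1.27 ± 0.085. Slc7a7, a chain of a cationic amino acid exporter, fell by 1.41 ± 0.21 on the log2 scale. In Asxl1-MT2/T618I against Empty/T618I 5 rose and 6 fell, beside 25.4% higher and 18.5% lower over all genes. Slc7a5 and Slc3a2 fell there by 0.57 and 0.35 on the log2 scale, while Slc7a7 rose by 1.80 ± 0.20 (adjusted p 1.90e-06).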

How the data were processed

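The authors deposited raw counts per gene symbol for 12 libraries of HoxB8 cells, 1 column a library. The submitters' processing notes name the genome mm10 and Trimmomatic, STAR and DESeq2 as software. The counting tool, annotation, versions and strand setting are not given in the sources used here. The deposited counts were filtered with filterByExpr of edgeR 4.0.16 (R 4.3.3), which kept 11578 of 24411 symbols, and scaled by TMM. A quasi-likelihood model with 1 mean per group was fitted to all libraries. Each of 6 contrasts, the interaction included, was tested for every gene, and p-values were adjusted by Benjamini-Hochberg over all genes tested, with a call at an adjusted p under 0.05. On simulated counts, a check was set only on the largest changes simulated, in Asxl1-MT2/T618I against Empty/T618I, and these were recovered. They were larger than any synthetase change reported here, and recovery of smaller changes and of the interaction is not given.

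Members and lists were chosen with earlier results of these data known. Values in every library were to be given for called genes at 0.5 or more in absolute log2 fold change, at most 12 a comparison, and for the 3 cytosolic and 3 mitochondrial genes with the smallest changes, and at most 4 called genes of a list were to be named. Library values of Tars, Farsb, Gars, Hars, Dars and Pars2 in Empty/T618I against Empty/Empty, of Kars and Vars2, and of Lars2 with Rn45s, as well as the values of Farsa, Atf4, Slc3a2 and the fall of Slc7a5, were added after values were seen. Of the genes with the smallest changes only some are given by library. Promoter windows came from RefSeq (GRCm38.p6) and gene models from GENCODE vM21 (GRCm38). The planned comparison of proteins was not made. A few items, 1 member among them, are counted but not named or plotted here. Scaling, filter, DESeq2 1.42.0, the samples fitted, a block by column letter, and libraries left out or regrouped were varied. Intervals of counting error were not computed, since PCR copies are not independent molecules.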

Additional observations from a re-analysis of the deposited data

Results flagged for a closer look

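The effect of Asxl1-MT2 differed between cells with and without the T618I receptor for 7 synthetases, by edgeR's quasi-likelihood test of the interaction. Over all genes tested 19.6% were called, 14.1% higher and 5.51% lower, and the 7 of 38 were all lower. The log2 difference was -0.51 ± 0.14 for Iars (SE, adjusted p 0.0162), -0.50 ± 0.14 for Eprs (adjusted p 0.0176), -0.48 ± 0.12 for Tars (adjusted p 0.00753) and -0.42 ± 0.13 for Farsb (adjusted p 0.0246). It was -0.40 ± 0.12 for Vars2 (adjusted p 0.0227), -0.38 ± 0.099 for Hars (adjusted p 0.0120) and -0.37 ± 0.098 for Kars (adjusted p 0.0134). Iars, Tars, Hars and Kars kept the call when any single library was left out. Eprs lost it without Asxl1-MT2/T618I A or B (adjusted p at most 0.0523), Farsb without Empty/T618I B, Asxl1-MT2/Empty C or Asxl1-MT2/T618I A (at most 0.0716), and Vars2 without Empty/T618I B or Asxl1-MT2/T618I B (at most 0.0582).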

How the results depend on the processing

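With Empty/Empty A, B or C counted in turn as Empty/T618I, as 1 genotype label reads, the synthetases called in Empty/T618I against Empty/Empty numbered 0, 0 and 2 in place of 11, while all genes gave 0, 0, and 634 higher with 361 lower in place of 2038 and 1840, and the cytosolic median was 0.087, 0.090 and 0.20 in place of 0.16. For the interaction, A, B and C so counted gave 0, 0 and 7 in place of 7, and for Asxl1-MT2/T618I against Empty/T618I 21, 18 and 23 in place of 24. That count was 34 with library totals only. The interaction count was 17 with library totals only, 11 with DESeq2, 13 with the column letter as a replicate block and 17 without the letter C libraries. Leaving out 1 library at a time gave 11 to 18 calls against Asxl1-MT2/Empty (17 with all) and 5 to 13 for the interaction, and 8 to 12, 16 to 27 and 15 to 19 for Empty/T618I against Empty/Empty, Asxl1-MT2/T618I against Empty/T618I and Asxl1-MT2/T618I against Empty/Empty (11, 24 and 19 with all). The cause was not tested. One single-gene result turned round, that of Lars2 in Asxl1-MT2/T618I against Asxl1-MT2/Empty, at -0.42 without Asxl1-MT2/T618I B (from -0.42 to 0.30 over the single libraries left out). Same-lettered libraries did not deviate together in every pair (r from -0.081 to 0.29 across genes), so the letters were not taken as pairs. Among Empty/T618I, Asxl1-MT2/Empty and Empty/Empty, r was 0.21 to 0.25 for letter A and 0.23 to 0.29 for letter C. It was -0.026 to 0.071 for letter B, and -0.081 to 0.13 in pairs with Asxl1-MT2/T618I. A letter effect shared by only some groups was not tested. The synthetases themselves followed the letters, since their summed CPM rose from A to B to C in every group. It was 3549, 3767 and 3812 CPM in Asxl1-MT2/T618I and 4493, 4636 and 4721 CPM in Empty/T618I. The cytosolic sum did the same, and the mitochondrial sum did so only in Empty/Empty. Without the block, such an order adds to the spread that the p-values measure. Apart from the interaction, the block moved no member count by over 1.5 times. Low members such as Wars2, at a lowest count of 52, limit what can be detected.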
